A study of Mus musculus with 8 samples.

Results

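Hox genes encode homeodomain transcription factors that give cells their position along the body axis. In the mouse they stand in 4 clusters, HoxA to HoxD, numbered from paralog group 1 at the 3′ end, which is active early and towards the head, to group 13 at the 5′ end, which is active late and towards the tail. Within a cluster neighbouring genes are usually on or off in blocks, Polycomb complexes keep blocks silent and Trithorax complexes keep them active, and cells in culture tend to retain the Hox pattern of their origin. The clusters also hold genes for microRNAs (miRNAs) of the miR-10 and miR-196 families, several of whose known targets are Hox mRNAs. The Argonaute proteins all bind miRNAs, and Ago2 is the member of the family that can cut a fully paired target.

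The Hox genes were described in RNA-seq of LLC cells, the mouse Lewis lung carcinoma line, grown in DMEM with fetal bovine serum and without further treatment. Of the 8 libraries, 4 were wild-type and 4 were Ago2 knock-out (ΔAgo2), all labelled batch 1. The ΔAgo2 cells had been made with a lentiviral CRISPR-Cas9 vector and puromycin selection and then sorted as single cells to obtain clones. The sources used here do not say which clone was sequenced or whether the wild-type cells went through the same steps. The knock-out and the derivation of a clone cannot be told apart. The labels call the libraries biological replicates without saying whether they came from separate cultures, so p-values measure the spread between these libraries.

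The members were chosen by their symbol alone, as every protein-coding gene named Hox with a letter a to d and digits, which gave 39 of the 55487 genes in the count table, with 11 in HoxA, 10 in HoxB, 9 in HoxC and 9 in HoxD. The family itself was picked for description with results of this contrast known, so the counts of called members below are descriptions and support nothing by themselves. Low counts left 27 members for testing among 14228 tested genes, 11 in HoxA, 9 in HoxB, 2 in HoxC and 5 in HoxD.

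The wild-type libraries held 40740643 to 68530912 counts each and the ΔAgo2 libraries 39628101 to 57595675. Wild-type replicate 4 stood apart, with a median Spearman correlation within its genotype of 0.864 (0.948 to 0.961 for replicates 1 to 3), a mitochondrial share of 0.540% against 2.39% to 4.51% in the other 7 libraries, and a deviation that followed GC content across genes (Spearman rho 0.72, over genes). Ago2 read counts did not separate the genotypes, at 119 to 519 CPM (counts scaled to the library total with edgeR's TMM factors) in wild-type and 292 to 408 CPM in knock-out libraries, so they do not check the labels. Of 5 lung epithelium markers, Nkx2-1, Sftpb and Scgb1a1 were at 0 in every library and the summed level of the list was 0.10 to 0.22 TPM (a level scaled to transcript length and library) in wild-type and 0.16 to 0.22 TPM in ΔAgo2. The mesenchymal list, led by Vim and Fn1, summed to 2903 to 4016 TPM and 3894 to 4849 TPM, in the same order. Of 5 epithelial markers, Epcam had 1 count in 1 library, Cdh1 had at most 9, and Krt8, Krt18 and Krt19 were read, giving 246 to 1673 TPM and 729.8 to 1133 TPM for the list. Cd3e had 0 counts and Ptprc at most 2 in a library, and the leukocyte list (16.5 to 94.6 TPM and 12.8 to 44.4 TPM) was carried by Cd68. The endothelial pair Pecam1 and Cdh5 summed to 0.03 to 0.26 TPM and 0.16 to 0.74 TPM.

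The sequences bearing on Ago2 and the clusters are the mature miRNAs encoded in them and their sites in Hox mRNAs. The miRNAs are shown 5′ to 3′ (RefSeq, GRCm38.p6) with the seed, bases 2 to 8, in capitals. miR-196a-5p and miR-196b-5p share one seed, and miR-10a-5p and miR-10b-5p share another.
miR-196a-5p: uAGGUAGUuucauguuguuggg
miR-196b-5p: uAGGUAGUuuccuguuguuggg
miR-10a-5p: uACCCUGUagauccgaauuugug
miR-10b-5p: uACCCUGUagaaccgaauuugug

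Identical miR-196a-5p molecules come from Mir196a-1 in HoxB (chr11:96265187-96265208, plus strand), 5′ of Hoxb9, and Mir196a-2 in HoxC (chr15:102973365-102973386, plus strand). Mir196b lies in HoxA, Mir10a in HoxB next to Hoxb4 and Mir10b in HoxD. These libraries were made from polyadenylated RNA and do not measure mature miRNAs.

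Of the 39 Hox 3′ untranslated regions, taken from the GENCODE transcript with the longest one, 9 held a miR-196 seed site, 6 a miR-10 site and 2 a miR-615-3p site, the seed of the HoxC miRNA Mir615. A site was a match to bases 2 to 8, or to bases 2 to 7 followed by an A. Hoxa7 held 4 of the 15 miR-196 sites and Hoxc8 held 3. Hoxb8 held none of them, but its 3′ untranslated region had the stretch that paired best with miR-196a-5p without a gap, with 21 of 22 bases paired and a G-U pair at base 5 of the miRNA, while the next best, in Hoxd8, paired 15. This near-complete pairing of Hoxb8 with miR-196 is a textbook case of a mammalian mRNA cut by Ago2. The stretches are shown 5′ to 3′ on the mRNA strand, with DNA letters and paired bases in capitals for Hoxb8 and Hoxd8, and with seed-matched bases in capitals for the single sites of Hoxb6 and Hoxb7.
Hoxb8, chr11:96284888-96284909, plus strand: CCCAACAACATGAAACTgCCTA
Hoxd8, chr2:74707120-74707141, plus strand: CtCAACAACATaAActTcCtaA
Hoxb6, chr11:96301373-96301394, plus strand: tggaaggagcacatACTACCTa
Hoxb7, chr11:96289784-96289805, plus strand: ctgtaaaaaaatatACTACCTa

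The LLC cells carried a broad Hox pattern with its highest members in the middle of HoxD, which gave more transcript than any other cluster. Levels between genes are compared as TPM. Hoxd8 was the highest member at 62.6 ± 29.6 TPM (SD, n = 4) in wild-type and 99.1 ± 7.99 TPM in ΔAgo2, followed by Hoxd9 at 61.1 ± 13.4 and 61.8 ± 2.77 TPM. The level of Hoxd8 did not differ from that of Hoxd9 in wild-type cells beyond their SD. Hoxd10 came next at 27.9 ± 14.6 and 39.6 ± 5.77 TPM, and its wild-type level overlapped within the SD with that of Hoxa7, the following one, at 25.2 ± 10.7 and 30.0 ± 2.28 TPM. Hoxa5, Hoxb4 and Hoxb7 followed, and the first 7 ranks were the same in both genotypes. Hoxb9 moved from rank 8 to rank 19 and Hoxb6 from rank 15 to rank 22.

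The silent members lay mainly at the ends of clusters. Hoxb1, Hoxc12 and Hoxd1 had 0 counts in every library. Hoxd11, Hoxd12 and Hoxd13, which in the embryo pattern the distal limb and the genital region, each had 1 count in 1 library and 0 in the other 7, next to the highly expressed Hoxd10. In HoxA, by contrast, the 5′ genes Hoxa10, Hoxa11 and Hoxa13 were all read, at 3.26 ± 1.08, 8.43 ± 3.92 and 1.62 ± 1.603 TPM in wild-type cells, while Hoxa9, between Hoxa7 and Hoxa10, was at 0.17 ± 0.12 TPM.

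Summed over its Hox genes, HoxD gave 153 ± 31.3 TPM (SD, n = 4) in wild-type and 203 ± 14.6 TPM in ΔAgo2, HoxA 79.5 ± 26.97 and 92.6 ± 3.91 TPM, HoxB 71.7 ± 19.7 and 43.6 ± 7.07 TPM, and HoxC 3.41 ± 1.57 and 0.28 ± 0.113 TPM. The wild-type libraries held 51.8 to 93.1 TPM of HoxB and the ΔAgo2 libraries 36.8 to 50.3 TPM, without overlap but by a narrow margin. For HoxC they held 1.56 to 4.80 TPM and 0.14 to 0.39 TPM, also without overlap. For HoxD the ΔAgo2 sums were higher by a narrow margin, with a highest wild-type library of 181.7 TPM and a lowest ΔAgo2 library of 182.5 TPM, and for HoxA the sums overlapped. The sum over all 39 genes was 307.6 ± 50.8 TPM and 339 ± 16.1 TPM, so the family total was not lower in ΔAgo2 cells. HoxD made up 46.8% to 56.0% of that total in wild-type and 55.6% to 62.0% in ΔAgo2 libraries. In bulk RNA such as this, fewer cells expressing a gene and less RNA per cell cannot be told apart.

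**Figure D1:**
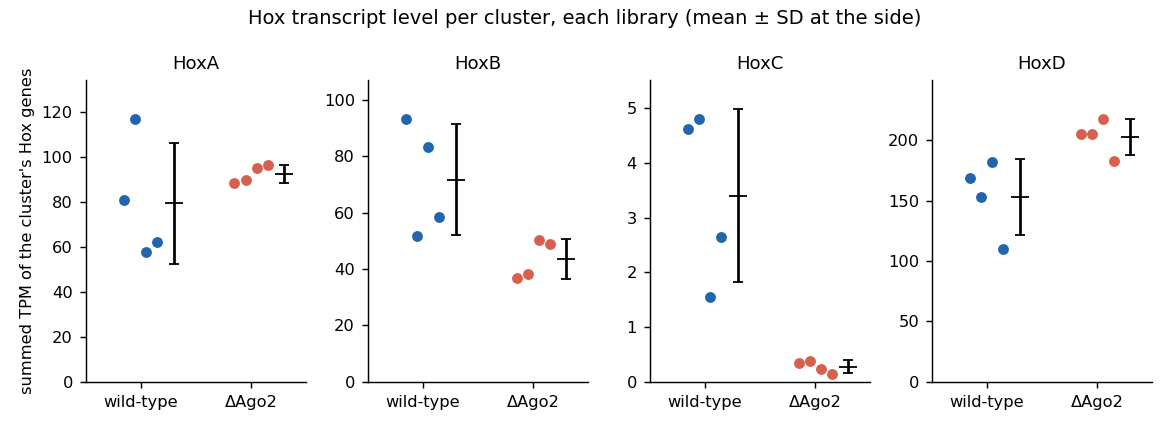
Summed TPM of the Hox genes of each cluster (vertical axes, one scale per cluster, from 0) in each of 4 wild-type (blue) and 4 ΔAgo2 (red) libraries, with the mean and SD at the side. ΔAgo2 libraries lay below all wild-type libraries in HoxB (at most 50.3 TPM against at least 51.8) and HoxC (at most 0.39 TPM against at least 1.56).

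In the comparison of genotypes, Hoxc4 was lower in ΔAgo2 cells at an adjusted p under 0.05 and no Hox gene was higher (edgeR's quasi-likelihood test, Benjamini-Hochberg adjustment over all 14228 tested genes). Over all tested genes 0.218% were called lower and 0.0773% higher. At an unadjusted p under 0.05 in the same test, 7 of the 27 tested members were lower (Hoxb5, Hoxb6, Hoxb8, Hoxb9, Hoxb13, Hoxc4 and Hoxc6) and 0 higher, beside 4.62% and 2.72% of all tested genes. For 5 of them (Hoxb6, Hoxb9, Hoxb13, Hoxc4 and Hoxc6) every ΔAgo2 library was below every wild-type library in CPM, beside 2.98% of all tested genes, and no member was higher without overlap, beside 3.09%. Because the filter also passes genes through the genotype in which they are high, these counts cover only the members that passed it. Hoxb13, Hoxc4 and Hoxc6 passed it through their wild-type counts alone. Genes this low in ΔAgo2 cells enter only when they are higher in wild-type, so their direction and the HoxC median below carry no weight. The median log2 fold change (ΔAgo2 minus wild-type, here and below) was -0.21 over the tested Hox genes and -0.11 over all tested genes. By cluster it was 0.048 in HoxA, -1.14 in HoxB, -4.40 in HoxC with its 2 tested genes and 0.36 in HoxD. The median of the tested Hox genes turned positive, at 0.017, when each library was corrected for GC content, and the members' median GC content was 53.4% against 49.6% for all tested genes. The median of all tested genes after that correction is not given here, so whether the shift is particular to Hox genes was not tested.

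**Figure D2:**
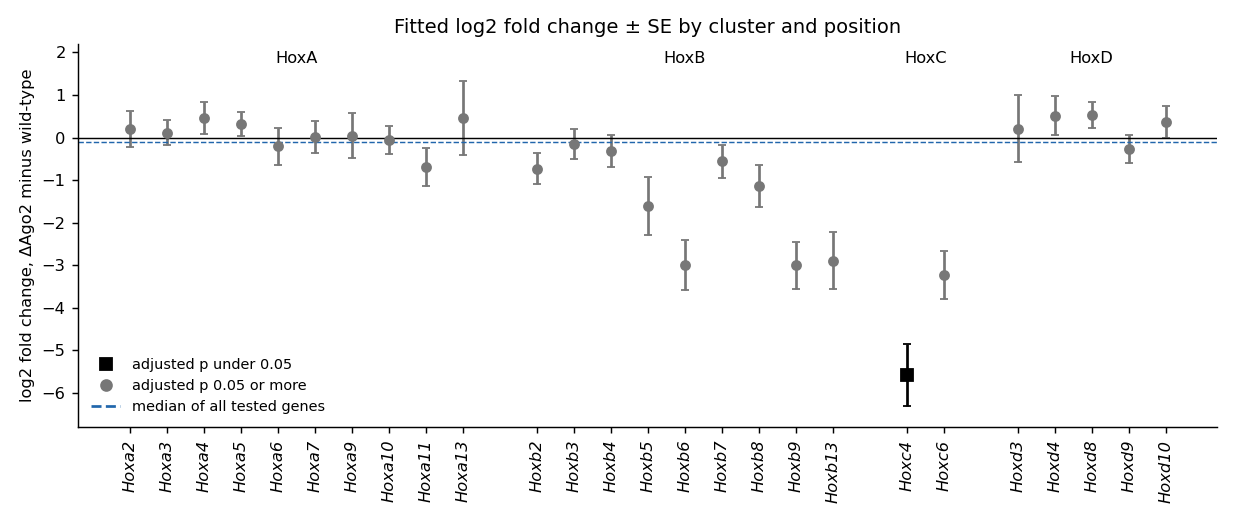
Log2 fold change (ΔAgo2 minus wild-type, vertical axis) with its standard error for the tested Hox genes that are reported, ordered along the horizontal axis by cluster and paralog number. The black square marks Hoxc4 at -5.58, the one member with an adjusted p under 0.05, the dashed line marks the median of all tested genes at -0.11, and Hoxb6, Hoxb9 and Hoxb13 lie near -3.

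HoxC was the cluster with the largest difference, and it was read at low counts throughout. Its tested genes passed the filter through their wild-type counts alone. Hoxc4 (ENSMUSG00000075394.4, chr15:103018934-103036852, plus strand), which stands at the 3′ end of the cluster and acts in the neck and forelimb region, was counted 41, 31, 30 and 22 times in the wild-type libraries and 1, 0, 1 and 0 times in the ΔAgo2 libraries, in the order of replicates 1 to 4 that is kept below. The pooled ratio of wild-type to ΔAgo2 was 55.8, with an exact 95% interval of 15.1 to 466 for counting error only. The fit gave a log2 fold change of -5.58 (standard error 0.72, adjusted p = 0.0189, edgeR), a size that depends on the prior count since ΔAgo2 cells held 2 counts in all. All 4 ΔAgo2 libraries were lower (two-sided exact permutation test of the CPM values, p = 0.0286, which is the lowest that groups of 4 can reach). The call was lost, with the gene still lower, when wild-type replicate 1 or any ΔAgo2 library was left out (adjusted p 0.0511 to 0.120, edgeR), with a replicate block (adjusted p = 0.0503, edgeR) and on the log2(TPM + 1) scale in limma. DESeq2, the tool the study used for its own differential expression, called 6 Hox genes, all lower, namely Hoxb6, Hoxb9, Hoxb13, Hoxc4, Hoxc5 and Hoxc6. Over all genes to which it gave an adjusted p it called 1.48% lower and 0.742% higher.

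Hoxc6 (chr15:102998257-103011881), a gene of the thoracic level, had 118, 152, 39 and 52 counts in wild-type and 13, 11, 6 and 5 in ΔAgo2 libraries. The groups did not overlap, at 1.69 ± 0.807 CPM and 0.179 ± 0.0730 CPM (SD, n = 4). Its log2 fold change was -3.22 (standard error 0.57), a 9.34-fold lower level, with an adjusted p of 0.0567 (edgeR) that misses the threshold. Wild-type replicate 3 was the lowest of its group for this gene and for the cluster's sum, and was above every ΔAgo2 library in both.

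The other HoxC genes did not pass the filter and were not tested, and all their reads came from wild-type cells. Hoxc5 had 11, 30, 3 and 12 counts in wild-type and 0 in every ΔAgo2 library, at least 16.8-fold lower against a floor of 3 counts over the 4 ΔAgo2 libraries together. Hoxc8 had 7, 2, 4 and 2 counts against 0 (at least 4.497-fold lower) and Hoxc9 1, 2, 0 and 7 against 0 (at least 2.998-fold). Hoxc10 had 3 counts, Hoxc11 2 and Hoxc13 1 in all wild-type libraries together and 0 in ΔAgo2 libraries, which at this depth shows no difference. Hoxc5 and Hoxc10 share 166 bases of exon in the annotation, so reads there could have been dropped or split. Over the whole cluster there were 572 counts in wild-type and 37 in ΔAgo2 libraries, of which 35 were Hoxc6. Hotair, the long noncoding RNA of HoxC, had 0 counts in every library, as did the rows of Mir196a-2 and Mir615.

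None of the genes flanking HoxC had an adjusted p under 0.05. The nearest tested genes on either side were Calcoco1, Atp5g2 and Atf7 before the cluster and Smug1, Cbx5 and Hnrnpa1 after it, 116 to 296 kb away, with log2 fold changes from -0.68 to 0.54 and a median of 0.26. The median over the 570 tested genes of chromosome 15 was -0.21. Ago2 lies on the same chromosome, at chr15:73095844-73184935.

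In HoxB the 5 largest differences were those of Hoxb5, Hoxb6, Hoxb8, Hoxb9 and Hoxb13, and none of its Hox genes passed an adjusted p of 0.05 in edgeR. Hoxb9 (chr11:96271457-96276595), a gene of the thoracic level, had 426, 243, 1518 and 356 counts in wild-type and 71, 54, 51 and 106 in ΔAgo2 libraries. That was 11.4 ± 8.07 CPM against 1.42 ± 0.391 CPM (SD, n = 4), with wild-type replicate 3 far above the others and replicate 2 the nearest to ΔAgo2. The log2 fold change was -3.003 (standard error 0.55), 8.01-fold lower, with adjusted p = 0.0666 (edgeR). Leaving out wild-type replicate 2 brought it to -3.33 with adjusted p = 0.0266.

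Hoxb6 (chr11:96292476-96301569) had 161, 73, 118 and 206 counts in wild-type and 22, 14, 19 and 21 in ΔAgo2 libraries. The ΔAgo2 libraries were close together at 0.388 ± 0.0579 CPM and all below the wild-type libraries at 3.11 ± 2.38 CPM. The fitted difference was -2.99 on the log2 scale (standard error 0.59, adjusted p = 0.0958, edgeR). Hoxb13 (chr11:96194316-96197447), known as a regulator in prostate and tail and set apart from the rest of the cluster, had 20, 18, 17 and 31 counts against 6, 3, 2 and 1, without overlap. The fitted difference was -2.89 on the log2 scale (standard error 0.66, adjusted p = 0.170, edgeR).

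Hoxb5 and Hoxb8 overlapped between genotypes. Hoxb5 had 141, 101, 83 and 265 counts in wild-type and 28, 35, 54 and 100 in ΔAgo2 libraries, with a log2 fold change of -1.604 (standard error 0.69, adjusted p = 0.661, edgeR). This size rested on wild-type replicate 4, without which it was -0.70. Hoxb8, which carries the nearly complete miR-196 site printed above and is a blood progenitor gene as well as an axial one, had 492, 132, 312 and 233 counts against 136, 106, 148 and 128. The means were 5.93 ± 3.48 CPM and 2.69 ± 0.634 CPM (SD, n = 4), with a log2 fold change of -1.14 (standard error 0.49, adjusted p = 0.666, edgeR). Whether Ago2 cuts Hoxb8 mRNA in these cells was not tested.

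The remaining HoxB genes were nearer to 0. Hoxb7 had a log2 fold change of -0.56 (standard error 0.39), Hoxb2 -0.73 (0.36), Hoxb4 -0.31 (0.38) and Hoxb3 -0.15 (0.36), with adjusted p from 0.706 to 0.932 (edgeR). Hoxb2 was at 11.3, 7.18, 9.28 and 15.7 CPM in wild-type and 4.83, 4.92, 8.43 and 8.02 CPM in ΔAgo2 libraries, with an overlap through wild-type replicate 2. Without that library the members lower without overlap rose from 5 to 7, with Hoxb2 and Hoxb8 added, and those higher without overlap from 0 to 3 (Hoxa5, Hoxd3 and Hoxd4), beside 7.93% and 7.40% of all tested genes. The signs of Hoxb3 and Hoxb4 turned on the TPM scale, so no direction is given for them.

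Gm53 and Hoxb5os, noncoding genes inside HoxB, fell in ΔAgo2 cells. Gm53 (chr11:96251105-96264868), a long intergenic noncoding RNA between Hoxb13 and Hoxb9, had 186, 95, 342 and 151 counts in wild-type and 0, 0, 1 and 0 in ΔAgo2 libraries. The pooled ratio was 696 with an exact 95% interval of 125 to 27528 for counting error only, and the fit gave -8.94 on the log2 scale (standard error 0.90, adjusted p = 0.00730, edgeR). The call was lost without ΔAgo2 replicate 1 (adjusted p = 0.0702, edgeR). The Mir196a-1 row, whose hairpin starts 3′ of Gm53, had 15, 4, 16 and 10 counts in wild-type and 0 in ΔAgo2 libraries, at least 13.5-fold lower. Reads on a hairpin row of such a library come from longer transcripts. In CPM, wild-type replicate 2 was the lowest of its group for Gm53, for the Mir196a-1 row and for Hoxb9, and replicate 3 was the highest for Gm53 and Hoxb9.

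Hoxb5os, antisense to Hoxb5 and spanning Hoxb6, had 65, 32, 141 and 124 counts in wild-type and 0, 0, 1 and 2 in ΔAgo2 libraries. The pooled ratio was 109 (exact 95% interval 36.8 to 529, counting error only) and the fitted log2 fold change -6.76 (standard error 0.99, adjusted p = 0.0247, edgeR). The call was lost without wild-type replicate 1 or 3 or any ΔAgo2 library (adjusted p 0.0529 to 0.131, edgeR). It shares 100 exon bases with Hoxb5. Hoxb3os, antisense to Hoxb3 and Hoxb2, did not follow, with 215, 205, 157 and 78 counts against 221, 149, 224 and 217 and a log2 fold change of 0.47 (standard error 0.36, adjusted p = 0.764, edgeR). It covers 52.9% of the exon bases of Hoxb3 and 27.3% of those of Hoxb2, and the strand setting of the counting is not given in the sources used here, so reads of these genes may not be separated from it. The Mir10a row, beside Hoxb4, had 2, 6, 3 and 3 counts against 2, 3, 1 and 0.

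**Figure D3:**
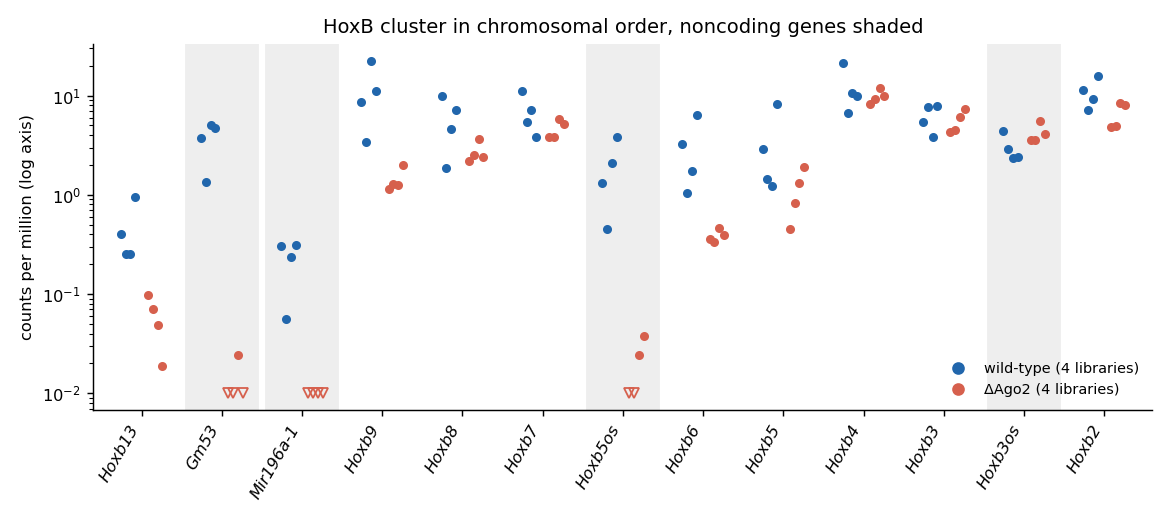
CPM (log axis) of the HoxB genes and their noncoding neighbours in each wild-type (blue) and ΔAgo2 (red) library, in chromosomal order from Hoxb13 to Hoxb2. Open triangles mark libraries with 0 counts, and shading marks noncoding genes; Gm53, the Mir196a-1 row and Hoxb5os are at or near 0 in ΔAgo2 libraries, while Hoxb3os and Hoxb2 to Hoxb4 are not.

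Outside HoxB the nearest tested genes were Atp5g1, Ube2z and Snf8 on the Hoxb13 side, 119 to 147 kb away, and Snx11, Cbx1 and Nfe2l1 on the Hoxb1 side. Their log2 fold changes ran from -1.12 to -0.018 with a median of -0.55, none at an adjusted p under 0.05. The median over the 1148 tested genes of chromosome 11 was -0.27.

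HoxA differed little between genotypes. Its 11 tested genes had log2 fold changes from -0.69 to 0.46, 7 of them above 0, none without overlap and none at an unadjusted p under 0.05 (edgeR, adjusted p from 0.740 to 0.995). Hoxa7, the highest gene of the cluster, had 24.5, 27.2, 9.25 and 34.4 CPM in wild-type and 22.8, 25.3, 22.7 and 25.4 CPM in ΔAgo2 libraries, with a log2 fold change of 0.013 (standard error 0.37). Its low value was wild-type replicate 3, and the ΔAgo2 libraries lay within the wild-type range. Hoxa5, which acts in lung and airway development, had 10.3, 13.4, 9.43 and 8.78 CPM against 10.8, 13.4, 14.4 and 13.8 CPM, a log2 fold change of 0.32 (standard error 0.27), and only wild-type replicate 2 overlapped with the ΔAgo2 libraries. Hoxa7 with its 4 miR-196 sites and Hoxa5 with 1 differed by 0.013 and 0.32. Over the 7 tested genes with a miR-196 seed site the median log2 fold change was 0.013, and over the 20 without one it was -0.23. The 20 include Hoxb8 (-1.14), whose nearly complete miR-196 stretch is not a seed site as defined here. This split therefore does not part miR-196 targets from other genes. For the 5 with a miR-10 site and the 22 without, the median was 0.013 and -0.29.

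Hoxa11, a gene of limb and uterus, had the lowest value of the cluster, a log2 fold change of -0.69 (standard error 0.46), with 8.11, 7.36, 3.43 and 5.18 CPM in wild-type and 1.90, 2.45, 5.32 and 5.29 CPM in ΔAgo2 libraries, so that the groups overlapped. Its antisense gene Hoxa11os, which covers 35.0% of its exon bases, was at -1.02 (standard error 0.55, adjusted p = 0.728, edgeR). Hoxa13 varied most, with 148, 36, 89 and 2 counts against 53, 53, 152 and 50, and its log2 fold change of 0.46 had a standard error of 0.88. Hoxa4 was at 1.32, 1.36, 1.31 and 2.11 CPM and 1.66, 1.57, 2.77 and 2.36 CPM, with wild-type replicate 4 above the other 3. Hoxa2 (0.20), Hoxa3 (0.12), Hoxa6 (-0.21), Hoxa9 (0.048) and Hoxa10 (-0.056) had log2 fold changes nearer to 0.

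None of the tested noncoding genes of HoxA had an adjusted p under 0.05 in edgeR. Hotairm1 was at -0.56 (standard error 0.42), Hoxaas2 at -0.47 (0.40) and Hoxaas3 at 0.29 (0.41) as log2 fold changes. The unnamed transcripts Gm27861, Gm27477 and Gm15050 lay between -0.77 and -0.23, and outside the Hox genes Halr1 was at 0.31 and the pseudogene Gm8129 at -0.73. The lowest adjusted p of these and Hoxa11os was 0.728 (edgeR).

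In HoxD the log2 fold changes of the 5 tested genes ran from -0.26 to 0.53 (edgeR, adjusted p from 0.738 to 0.957). Hoxd8 had 59.1, 45.5, 76.5 and 29.0 CPM in wild-type and 75.1, 74.6, 86.1 and 68.3 CPM in ΔAgo2 libraries, with 0.53 (standard error 0.31), and wild-type replicate 3 reached into the ΔAgo2 range. Hoxd9 had 44.0, 33.6, 27.1 and 73.0 CPM against 33.4, 36.0, 41.5 and 37.1 CPM, with -0.26 (standard error 0.33) and a sign that turned without wild-type replicate 4. Hoxd10 was at 22.0, 10.5, 22.2 and 8.04 CPM against 19.5, 21.4, 23.6 and 16.1 CPM, with 0.36 (standard error 0.37).

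Hoxd3 and Hoxd4 were read at low counts, and wild-type replicate 2 was apart from the other wild-type libraries in both. Hoxd3 had 11, 107, 9 and 4 counts in wild-type and 51, 28, 16 and 25 in ΔAgo2 libraries, a log2 fold change of 0.21 (standard error 0.78) that became 1.85 without wild-type replicate 2. Hoxd4 had 32, 118, 44 and 17 counts against 87, 57, 42 and 65, a log2 fold change of 0.51 (standard error 0.46). They share 388 exon bases with each other, and the read-through gene Gm28230 covers 53.1% of the exon bases of Hoxd3 and 39.1% of those of Hoxd4, so the counting could have dropped or split their reads. Hoxd3os1, antisense to both, was at -0.011 (standard error 0.34), Gm28230 at 0.034 and Gm14396 at 0.39. The flanking genes Lnpk and Mtx2, which stand on either side of HoxD within the regulatory landscape of the cluster, were at 0.019 (standard error 0.52) and 0.44 (0.32).

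**Figure D4:**
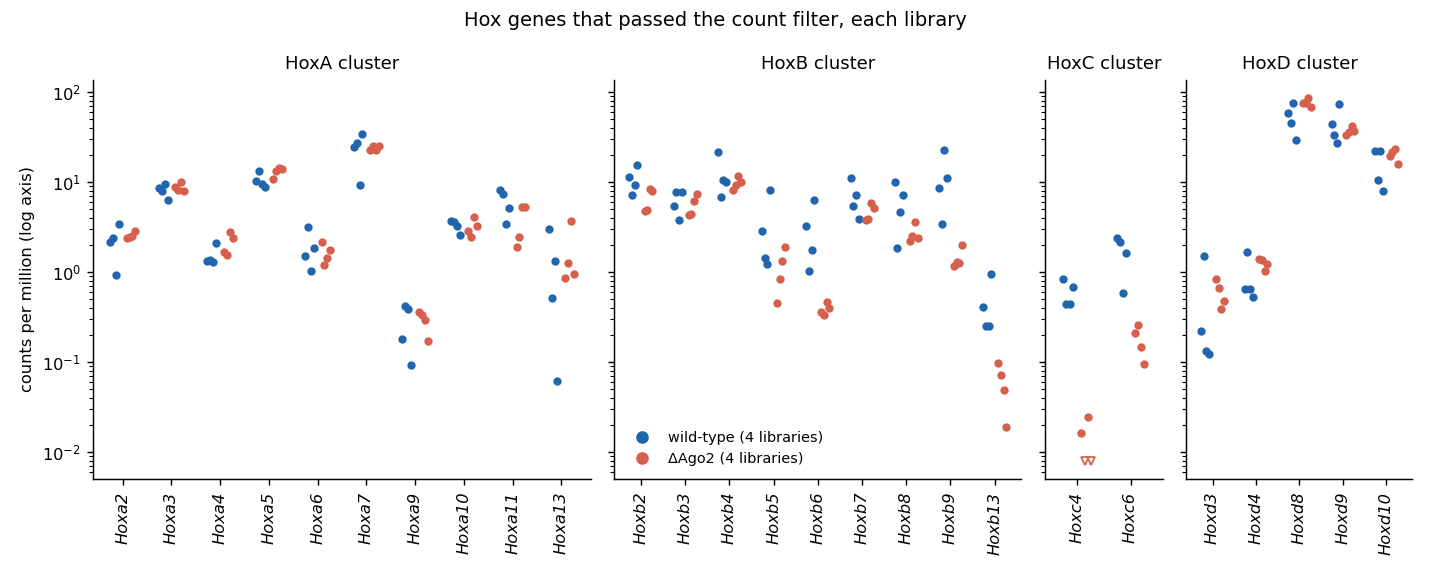
CPM (log axis) of the tested Hox genes that are reported, in each of 4 wild-type (blue) and 4 ΔAgo2 (red) libraries, by cluster and paralog number. Open triangles mark 0 counts; Hoxb6, Hoxb9, Hoxb13, Hoxc4 and Hoxc6 are the 5 genes whose ΔAgo2 points all lie under the wild-type points.

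The spread within a group was wider in wild-type cells. The median SD of log2 CPM over the 27 tested Hox genes was 0.69 in wild-type and 0.31 in ΔAgo2 libraries. Over all tested genes it was 0.80 and 0.24. Without wild-type replicate 4 the wild-type values were 0.64 for the Hox genes and 0.43 for all genes. Leaving that library out gave 6 Hox genes lower at an unadjusted p under 0.05 (Hoxb6, Hoxb7, Hoxb9, Hoxb13, Hoxc4 and Hoxc6) in place of 7. The share of all tested genes at that threshold in this fit is not given here, so the 6 cannot be set beside it. Calls over all tested genes at an adjusted p under 0.05 (edgeR) rose from 42 to 97 without that library.

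Promoters of 3 Hox genes from RefSeq's table (GRCm38.p6) are shown as 250 bases before and 50 after the start on the coding strand, with CG dinucleotides in capitals. Of the 7 members lower at an unadjusted p under 0.05 only Hoxc4 and Hoxb8 had an entry, and Hoxd9 is shown as a highly expressed gene that was not called.
Hoxc4, chr15:103034145-103034444, plus strand: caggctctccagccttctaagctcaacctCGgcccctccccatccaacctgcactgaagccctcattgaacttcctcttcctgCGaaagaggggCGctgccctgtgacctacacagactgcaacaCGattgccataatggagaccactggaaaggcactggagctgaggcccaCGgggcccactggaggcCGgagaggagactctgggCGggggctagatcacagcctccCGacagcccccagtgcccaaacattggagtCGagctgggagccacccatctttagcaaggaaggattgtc
Hoxb8, chr11:96281655-96281954, plus strand: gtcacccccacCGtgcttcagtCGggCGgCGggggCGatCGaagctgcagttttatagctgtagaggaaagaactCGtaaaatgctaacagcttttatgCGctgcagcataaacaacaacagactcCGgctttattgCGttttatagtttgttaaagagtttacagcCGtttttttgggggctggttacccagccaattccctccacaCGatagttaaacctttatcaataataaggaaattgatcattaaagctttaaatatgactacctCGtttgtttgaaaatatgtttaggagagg
Hoxd9, chr2:74697513-74697812, plus strand: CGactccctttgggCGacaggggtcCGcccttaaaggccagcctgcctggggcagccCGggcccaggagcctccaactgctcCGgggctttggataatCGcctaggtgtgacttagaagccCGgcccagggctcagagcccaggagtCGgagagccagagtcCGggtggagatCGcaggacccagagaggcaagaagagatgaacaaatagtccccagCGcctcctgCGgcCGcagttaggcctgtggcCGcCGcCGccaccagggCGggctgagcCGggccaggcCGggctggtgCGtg

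They held 9, 13 and 20 CG dinucleotides, in that order. The 24 Hox promoters of 22 genes in the table had a median of 14.5, from 4 to 45, and all 32851 promoters had a median of 7. The motif TGATNNAT, which Hox proteins bind together with Pbx, was sought on both strands (ATNNATCA on the other). It was in 4 of the 24 Hox promoters (16.7%), those of Hoxa2, Hoxb1 and Hoxb8 and the downstream promoter of Hoxd11, and in 8.85% of all promoters of this length. The Hoxb8 promoter holds it and the other pair shown does not.

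Hox proteins act with cofactors of the TALE class, Pbx, Meis and Pknox, and their genes are kept on or off by Trithorax and Polycomb complexes. Of 63 listed cofactor, chromatin and upstream genes 55 were tested, and 0 passed an adjusted p of 0.05 in edgeR or in any other tool run. At an unadjusted p under 0.05 in edgeR 3 were lower, Pknox2 and Rarg among them, and 1 was higher (Cyp26b1), beside the 4.62% and 2.72% of all tested genes given above. The median log2 fold change was -0.087 over the 9 TALE genes, 0.040 over the 24 Polycomb genes, 0.032 over the 13 Trithorax and H3K27 demethylation genes and -0.30 over the 9 tested upstream genes.

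Pbx2 was at -0.087 (standard error 0.27) and Pbx3 at 0.47 (0.36) as log2 fold changes, and Meis1 at 0.29 (0.31), Meis2 at -0.43 (0.32) and Meis3 at -0.41 (0.50). Ezh2, the methyltransferase of Polycomb repressive complex 2, was at 0.37 (0.39) and Kmt2a, the Trithorax methyltransferase of Hox genes, at 0.27 (0.38). Rarg, a retinoic acid receptor, had 152, 112, 152 and 260.3 CPM in wild-type and 69.7, 76.5, 121.8 and 76.1 CPM in ΔAgo2 libraries, with -0.98 (standard error 0.33, adjusted p = 0.476, edgeR), an overlap through wild-type replicate 2. Cyp26b1, which breaks down retinoic acid, had 0.996, 1.59, 2.17 and 2.79 CPM against 6.30, 5.27, 5.41 and 2.00 CPM, with 1.33 (standard error 0.47, adjusted p = 0.521, edgeR). Pknox2 was at -1.03 (0.43).

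Other developmental factors were compared by symbol. Of 64 homeobox genes outside the clusters 18 were tested, 1 of which, Lhx2, was lower at an adjusted p under 0.05 (0.0350, edgeR), with a median log2 fold change of -0.27, beside the 0.218% of all tested genes called lower. Of 13 T-box genes 8 were tested, and Tbx5, a forelimb and heart factor, was lower (adjusted p = 0.0247, edgeR), at 3.41, 0.836, 4.80 and 5.77 CPM in wild-type and 0 in every ΔAgo2 library, with a median of -0.14 for the list. Both calls were lost when wild-type replicate 1 or 3 or any ΔAgo2 library was left out and in limma on log2(TPM + 1), and that of Lhx2 also with a replicate block. Their shares of called genes were not tested against those of the Hox genes.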

How the data were processed

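RNA was sequenced from 4 wild-type and 4 ΔAgo2 LLC libraries (Illumina stranded mRNA kit, paired-end reads of 100 bases). Per the study's methods, the authors first removed ribosomal reads by alignment, mapped the rest to mm10 and assigned them to genes with featureCounts. The aligner in the submitters' processing notes is STAR. A STAR version is named only for the study's transposable element analysis. The version behind these gene counts, the annotation release and the strand setting are not given in the sources used here. The authors deposited raw counts for 55487 genes and TPM values (levels per transcript length, on a common total) of the same 8 libraries. Groups and replicate numbers came from the labels.

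Counts were filtered with filterByExpr, which left 14228 genes, scaled with TMM factors and tested with edgeR 4.0.16 in R 4.3.3 (quasi-likelihood, two-sided, genotype only), with Benjamini-Hochberg adjustment over all 14228. Standard errors are the log2 fold change over the square root of F. Folds against 0 counts use a floor of 3 counts over a group. Intervals and floors cover counting error only. The fit was tested on simulated data.

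Names, positions, exons, GC content and 3′ untranslated regions came from GENCODE M21 on GRCm38 (mm10), in which 93 gene identifiers had no match. miRNA and promoter sequences came from RefSeq. All 6 cluster miRNA genes matched, and 22 of 39 Hox genes had a promoter.

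The members and gene lists were chosen with earlier results of these data known. A few genes of the lists are counted but not reported here by name. The other Hox genes are named, with values in each library for those that mattered to a comparison. Of the noncoding genes and neighbours within 100 kb of a cluster, most that passed the filter are named, with some that overlapped a Hox gene. Some regulators are named at an unadjusted p under 0.05 or as cofactors of interest. Alternatives were DESeq2 1.42.0, limma 3.58.1 (voom with sample weights, and log2(TPM + 1) or log2(TPM + 0.1)), other scaling factors and filters, GC correction, a replicate block, other thresholds and each library left out in turn.

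Same-numbered libraries correlated at -0.14, -0.05, 0.38 and 0.03 in their deviations from the group means (Pearson, replicates 1 to 4, across genes), so the numbers were not treated as pairs.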

Additional observations from a re-analysis of the deposited data

Results flagged for a closer look

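Among the 54 groups formed by 27 Hox genes in 2 genotypes, 1 held a library far from the others, and chance would flag about 1 in 20 groups. For Hoxa4 in wild-type cells, replicate 4 was the highest at 2.11 CPM while replicates 1 to 3 lay between 1.31 and 1.36, and the gap took up 0.919 of the group's range, above Dixon's 95% critical value for groups of 4. This is the library that stood apart over all genes in GC dependence and mitochondrial share. The part of that in the Hoxa4 value was not tested. Hoxa4 was called in none of the fits.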

How the results depend on the processing

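Across 19 alternative fits, 17 of the 27 tested Hox genes kept their direction, among them Hoxb2, Hoxb5 to Hoxb9, Hoxb13, Hoxc4 and Hoxc6. The count of Hox genes with an adjusted p under 0.05, which was 1, became 6 with DESeq2 (Hoxb6, Hoxb9, Hoxb13, Hoxc4, Hoxc5 and Hoxc6), 4 with voom weights, 5 without the filter on low counts, 0 with limma on log2(TPM + 1), 3 with the GC correction, 0 at a threshold of 0.01 and 4 at 0.1, and 0 to 3 with a library left out (3 without wild-type replicate 2, 0 without wild-type replicate 1 or any ΔAgo2 library, 2 without wild-type replicate 3 or 4). With the replicate block it was 0, since Hoxc4 came to an adjusted p of 0.0503 (edgeR), and with the GC correction and the replicate block it was 2. Over all tested genes the 42 calls became 399 with DESeq2, 257 with voom weights, 143 without the filter, 71 with the GC correction, 18 with the replicate block, 15 on log2(TPM + 1), and 1 (without ΔAgo2 replicate 1) to 97 (without wild-type replicate 4) with a library left out. Hoxc4 ranged over adjusted p from 2.97e-05 (DESeq2) to 0.120.

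The median log2 fold change of -0.21 became 0.042 and 0.081 with limma on log2(TPM + 1) and log2(TPM + 0.1), 0.017 with the GC correction and 0.071 with the GC correction and the replicate block, and ran from -0.37 to -0.042 with a library left out. The 5 members without overlap, all lower, became 5 to 10 with a library left out, with 10 without wild-type replicate 2, of which 7 were lower and 3 higher. In those settings 3.29% to 7.93% of all tested genes were lower without overlap and 3.38% to 7.40% higher. The count of 7 members lower at an unadjusted p under 0.05 (leave-one-out added after seeing the data) became 5 to 8. The shares of all tested genes at that threshold in those fits are not given here, so this range has no background. The 0 called regulators stayed at 0 in all 19.

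Genes near 0 changed sign. Hoxa6 (-0.21) was at 0.023 with voom weights, 0.061 and 0.083 on the TPM scales (pseudocounts 1 and 0.1) and 0.16 with GC correction and replicate block. Hoxa10 (-0.056) was at 0.018 with library totals alone, 0.095 and 0.13 on TPM, 0.032 with GC correction and 0.071 with the block added. Hoxa13 (0.46) was at -0.50 with voom weights. Hoxb3 (-0.15) was at 0.062 and 0.081 on TPM, 0.045 with GC correction and 0.057 with the block added. Hoxb4 (-0.31) was at 0.0083 and 0.016 on TPM and 0.030 with GC correction and block. Hoxd9 (-0.26) was at 0.042 and 0.043 on TPM and 0.12 with GC correction, with or without the block. With a library left out, ranges crossing 0 were -0.061 to 0.49 for Hoxa2, -0.41 to 0.15 for Hoxa6, -0.25 to 0.25 for Hoxa7, -0.21 to 0.31 for Hoxa9, -0.22 to 0.048 for Hoxa10, -0.27 to 1.39 for Hoxa13, -0.52 to 0.11 for Hoxb4, -0.11 to 1.85 for Hoxd3 and -0.44 to 0.094 for Hoxd9. The causes were not tested. HoxC totals of 37 counts over 4 libraries limit what can be said of its single genes.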
